A study of Mus musculus with 6 samples.

Results

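The unfolded protein response and the integrated stress response were examined through 35 genes of the 25701 in the count table. They were picked by gene symbol and kept in 3 groups: 14 genes of the PERK/ATF4 arm, 7 genes of the IRE1/XBP1 arm and 14 genes for ATF6 and the chaperones of the endoplasmic reticulum (ER). All 35 symbols were found (*Ddit3* also under a second identifier, at 0 counts), and all 35 passed the filter on low counts. Bulk RNA-seq had been made from CD11b+ cells of TC1 tumors, with 3 MCT2 CO and 3 MCT2 KO samples. Mice of both groups were on a C57BL/6 background and are described as carrying loxP-flanked MCT2 alleles with a tamoxifen-inducible, systemic Cre transgene. MCT2 KO mice received tamoxifen from 8 weeks of age and MCT2 CO mice received vehicle, so tamoxifen itself, Cre activity and loss of MCT2 cannot be told apart. Mice were male, TC1 lung tumor cells were implanted under the skin of the flank 2 days after treatment, and tumors were taken after 24 days. The labels give the tissue as lung and the cells as purified macrophages, while the methods describe bead selection of CD11b+ cells from the digested flank tumors.

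Secretory and membrane proteins fold in the ER, and 3 sensors respond when unfolded proteins collect there. PERK (*Eif2ak3*) phosphorylates eIF2α, which slows translation in general and favors translation of ATF4, while GCN2 (*Eif2ak4*) reaches the same step on amino acid shortage; this shared route is the integrated stress response. IRE1 (*Ern1*) splices *Xbp1* mRNA, and ATF6 is cleaved to release a transcription factor; XBP1 and ATF6 together drive genes for chaperones and for ER-associated degradation. In macrophages these routes serve secretion and lipid handling. Counts per gene show neither *Xbp1* splicing nor eIF2α phosphorylation nor ATF4 protein, so what follows is about mRNA of the factors and of their target genes.

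ER stress elements were looked for in the promoters, since they tie the chaperone genes to ATF6 and XBP1. RefSeq promoter windows on GRCm38.p6, from 250 bases before to 50 bases after a gene's start, were found for 32 of the 35 genes (35 windows). The ER stress element was searched on both strands as CCAAT and CCACG with 9 bases between. It stood in 8 of the 35 windows (22.9%), against 0.119% of 32851 windows of all genes. Of the 8 genes holding it, 7 were chaperone genes (*Hspa5*, *Hsp90b1*, *Dnajc3*, *Creld2*, *Calr*, *Canx* and *Pdia6*) and 1 was the degradation gene *Syvn1*. The sites of *Hspa5* and *Syvn1* are shown because the levels of these genes did not overlap between MCT2 CO and MCT2 KO, and those of *Hsp90b1*, *Calr* and *Pdia6* because theirs did. Each line gives 10 bases on either side, 5′ to 3′, with the CCAAT and CCACG of the element in capitals.
Hspa5 (chr2:34772015-34772053, plus strand): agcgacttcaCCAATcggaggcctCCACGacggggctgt
Syvn1 (chr19:6046522-6046560, plus strand): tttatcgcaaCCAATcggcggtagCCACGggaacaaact
Hsp90b1, site nearer the start (chr10:86705523-86705561, plus strand): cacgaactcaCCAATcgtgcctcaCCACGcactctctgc
Hsp90b1, farther site (chr10:86705628-86705666, minus strand): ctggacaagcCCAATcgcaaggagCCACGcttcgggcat
Calr (chr8:84847065-84847103, plus strand): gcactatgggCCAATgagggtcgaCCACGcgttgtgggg
Pdia6 (chr12:17266481-17266519, plus strand): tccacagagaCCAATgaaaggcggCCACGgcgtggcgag

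The elements of *Syvn1* and *Hspa5* ended 26 and 47 bases before the start, and the others shown ended 80 (*Pdia6*) to 194 bases before it. A match is a description of letters and not of binding. A shorter form, ER stress element II (ATTGG and CCACG with 1 base between), was found in *Herpud1* and *Dnajb11* (5.71% of the windows, 0.0365% of all). The CEBP-ATF response element (TGATGNAA), the kind of site that ATF4 uses with C/EBP partners, was found in *Trib3*, *Chac1* and *Herpud1* (8.57% against 3.97%). The sites in *Chac1*, a glutathione-degrading enzyme, and *Herpud1* are given with the fixed letters of the element in capitals, the free N in lower case, because both genes are read as stress reporters.
Chac1 (chr2:119351039-119351066, minus strand): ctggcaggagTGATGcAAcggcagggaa
Herpud1 (chr8:94386307-94386334, minus strand): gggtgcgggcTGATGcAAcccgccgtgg

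The unfolded protein response element (TGACGTGG) was in none of the 35 windows and in 0.676% of all. Of the 8 genes with the ER stress element, 2 lay lower in MCT2 KO without overlap and 5 had a fold change below 0, with a median log2 fold change of -0.019. Of the 22 genes whose windows held neither form of it, 5 lay lower without overlap and 14 were below 0 (median -0.073). Over all genes tested, 8.77% lay lower without overlap and 49.9% were below 0. The element was present in genes that separated the groups and in genes that did not.

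Library totals were 24863611 to 31713704 counts, and the samples of a group differed by more than sampling noise. The targeted gene *Slc16a7* had 16.04, 11.04 and 11.21 CPM (counts scaled to equal TMM-normalized library sizes) in MCT2 CO and 8.22, 4.97 and 5.34 CPM in MCT2 KO, a log2 fold change of -1.05 (SE 0.24, edgeR adjusted p = 0.370). MCT2 CO 3 and MCT2 KO 2 stood apart from the other samples in the principal components. Macrophage genes were high in every sample (*Csf1r* 843 to 1408 CPM, *C1qa* 949 to 1863 CPM). So were genes of fibroblasts and of dividing cells (*Col3a1* 804.5 to 2027.5 CPM, *Mki67* 646 to 698 CPM). *Itgam*, which encodes CD11b itself, had 1 count over the 6 samples. By GENCODE M21, 99.1% of its exon bases lie inside the span of a second listed gene, *Gm49368*.

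MCT2 KO was compared with MCT2 CO by edgeR's quasi-likelihood test over 13485 genes, and a gene was called where the adjusted p did not exceed 0.05 and the log2 fold change reached 0.58 in either direction. None of the 35 genes was called, as was none of all genes tested (0%), and the adjusted p of the 35 ran from 0.370 to 0.978. With DESeq2 run on every gene that had a count, 83 of 18508 genes were called (0.448%) and again none of the 35. At an unadjusted p under 0.05, 7 of the 35 genes (20%) were lower in MCT2 KO, against 5.6% of all genes, and none was higher, against 3.77%. These 7 genes were *Atf4*, *Manf*, *Dnajb9*, *Ppp1r15a*, *Syvn1*, *Hspa5* and *Atf5*. All 3 MCT2 KO values lay below all 3 MCT2 CO values in 8 of the 35 genes (22.9%), the same 7 and *Ddit3*, against 8.77% of all genes. No gene of the 35 lay above without overlap, against 7.07% of all genes. A fold change below 0 was found in 23 of the 35 (65.7%), against 49.9%. The median log2 fold change was -0.047, and that of all genes was 0.00037.

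**Figure D1:**
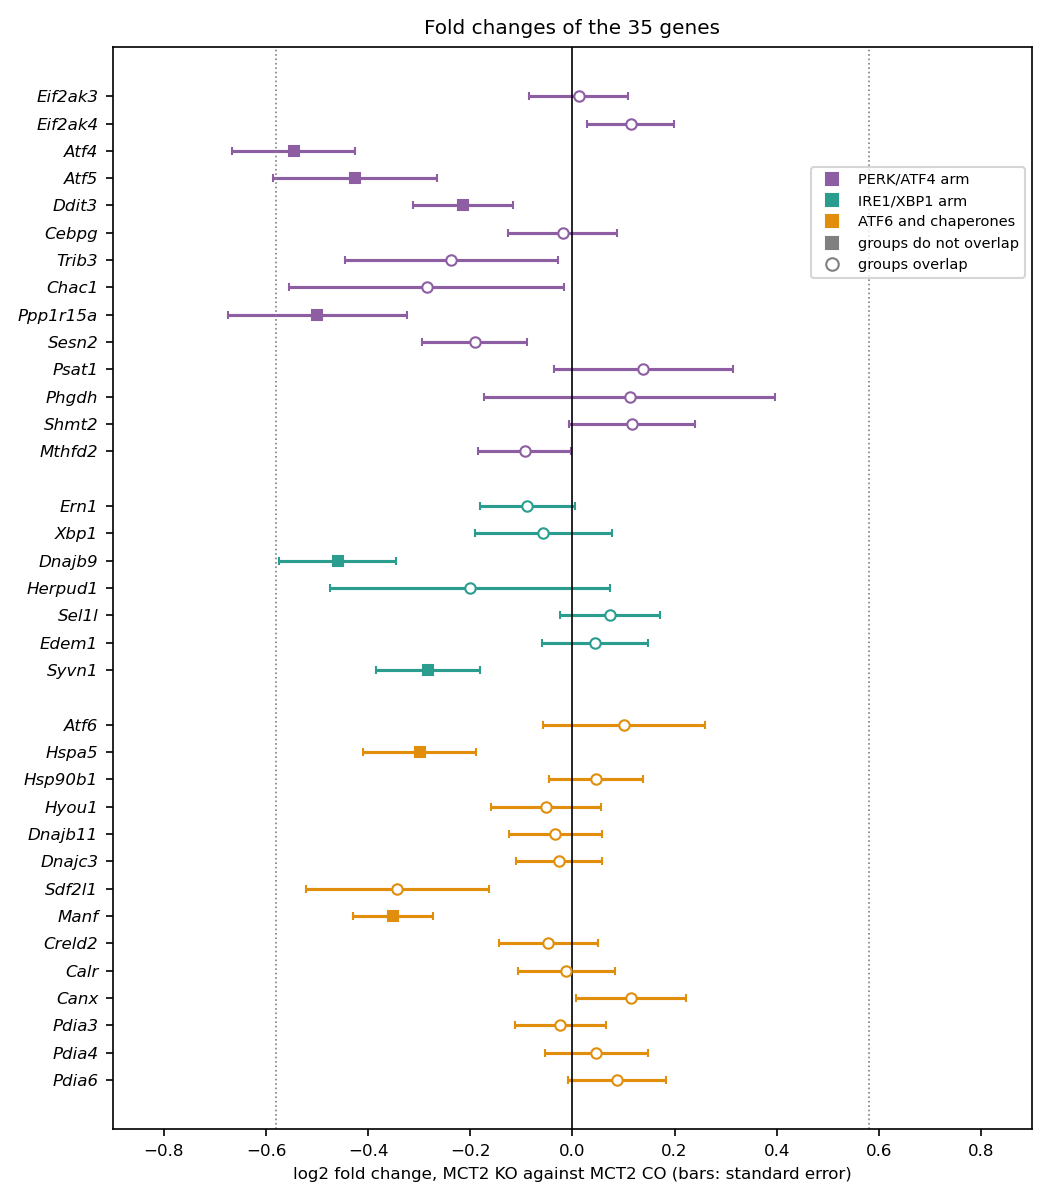
Log2 fold change of each of the 35 genes, MCT2 KO against MCT2 CO, with its standard error as a bar and the 3 gene groups in separate colors. Filled squares mark the 8 genes whose groups did not overlap, all on the lower side, and dotted lines mark the fold needed for a call (0.58), which no gene reached.

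The 35 genes together took 1.02%, 1.08% and 1.11% of the counts in MCT2 CO and 0.953%, 1.01% and 0.952% in MCT2 KO. The groups did not overlap, and *Hspa5* alone made up 22.7% to 27.2% of their sum. Without *Hspa5*, the sum was 7689 to 7915 CPM in MCT2 CO and 7390 to 7680 CPM in MCT2 KO, and the nearest samples of the groups lay close together. In a bulk sample, fewer cells of a type and less RNA per cell cannot be told apart.

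In the PERK/ATF4 arm, *Atf4*, *Atf5*, *Ddit3* and *Ppp1r15a* lay lower in MCT2 KO without overlap, and the other 10 genes overlapped between groups. *Atf4*, the factor translated when eIF2α is phosphorylated, had 433, 413 and 523 CPM in MCT2 CO and 346, 295 and 297 CPM in MCT2 KO. Its groups did not overlap, and MCT2 CO 3 was highest. The log2 fold change was -0.55 (SE 0.12, unadjusted p = 0.0019, adjusted p = 0.370, edgeR). With DESeq2 its adjusted p was 0.0133, the only one of the 35 under 0.05, and its log2 fold change there of -0.53 fell short of the 0.58 needed for a call. *Atf4* is a gene of 1 exon block on chromosome 15, from 80255184 to 80257541 (GRCm38), with no other listed gene over it.

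*Atf5*, a related factor with the same kind of translational control, had 43.3, 49.9 and 67.7 CPM in MCT2 CO and 36.6, 42.3 and 40.8 CPM in MCT2 KO. MCT2 CO 1 stood just above MCT2 KO 2, and the log2 fold change was -0.43 (SE 0.16, unadjusted p = 0.029, adjusted p = 0.497, edgeR). *Ddit3*, which encodes CHOP, a factor linked to death of stressed cells, had 24.2, 29.2 and 26.6 CPM in MCT2 CO and 22.6, 22.6 and 23.7 CPM in MCT2 KO. The gap between the groups was again narrow, and the log2 fold change was -0.21 (SE 0.098, unadjusted p = 0.060, edgeR). *Cebpg*, a partner of ATF4 on DNA, had 54.3 to 62.7 CPM in MCT2 CO and 53.0 to 66.0 CPM in MCT2 KO, fully overlapping. Other listed genes overlap part of *Atf5* (12.9% of its exon bases, *Nup62* and *Il4i1*) and of *Ddit3* (10.1%, *Mars* and a second *Ddit3* identifier), and the strand setting of the counting was not given in the sources used here.

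Among the stress targets, *Ppp1r15a* is the phosphatase subunit GADD34, which reverses eIF2α phosphorylation. It had 427, 426 and 484 CPM in MCT2 CO and 402, 242 and 301 CPM in MCT2 KO. MCT2 KO 1 lay near the MCT2 CO samples and the other two well below, and the log2 fold change was -0.50 (SE 0.18, unadjusted p = 0.0214, adjusted p = 0.475, edgeR). *Tulp2* overlaps 13.9% of its exon bases. *Ppp1r15b*, its constitutive counterpart and no member of the 35, had 235 to 247 CPM in MCT2 CO and 198 to 230 CPM in MCT2 KO (log2 fold change -0.16, SE 0.089).

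*Trib3*, a pseudokinase induced by ATF4 and CHOP, was at 8.11, 13.2 and 8.05 CPM in MCT2 CO and at 7.88, 8.23 and 8.80 CPM in MCT2 KO. MCT2 CO 2 was alone at its level, and without that sample the log2 fold change went from -0.24 to 0.041. *Chac1* was at 11.4, 16.7 and 23.4 CPM in MCT2 CO and 10.8, 17.3 and 13.98 CPM in MCT2 KO. MCT2 CO 3 was highest, and without it the log2 fold change went from -0.29 to 0.0056. *Sesn2*, a regulator of mTORC1 under stress, had 121 to 151 CPM in MCT2 CO and 109 to 124 CPM in MCT2 KO (log2 fold change -0.19, SE 0.10, unadjusted p = 0.099, edgeR), with 1 MCT2 KO sample inside the range of MCT2 CO.

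The 4 serine and one-carbon enzymes, which ATF4 also drives, overlapped between groups, and their difference from *Atf4* was not tested. *Phgdh*, the entry enzyme of serine synthesis, had 17.0, 24.6 and 32.2 CPM in MCT2 CO and 20.3, 37.3 and 21.9 CPM in MCT2 KO. *Psat1*, which acts on its product, had 116, 139 and 149 CPM in MCT2 CO and 117, 188 and 139 CPM in MCT2 KO. *Shmt2*, the mitochondrial serine hydroxymethyltransferase, had 82.2, 101 and 93.9 CPM in MCT2 CO and 90.8, 117 and 92.3 CPM in MCT2 KO. MCT2 KO 2 was highest for all 3 of these genes, and the 2 groups overlapped in each. Their log2 fold changes were 0.11 (SE 0.28), 0.14 (SE 0.18) and 0.12 (SE 0.12), and without MCT2 KO 2 they were -0.22, -0.070 and -0.0093. *Mthfd2*, a mitochondrial folate enzyme, had 42.1 to 48.6 CPM in MCT2 CO and 41.6 to 46.1 CPM in MCT2 KO (log2 fold change -0.094, SE 0.091).

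The 2 kinases at the head of the arm overlapped between groups. *Eif2ak3* had 26.1 to 29.2 CPM in MCT2 CO and 26.4 to 30.6 CPM in MCT2 KO, with a log2 fold change of 0.012 (SE 0.097). *Eif2ak4* had 62.9 to 69.1 CPM in MCT2 CO and 66.1 to 76.2 CPM in MCT2 KO, with a log2 fold change of 0.11 (SE 0.085). In all, 9 of the 14 genes of the arm had a fold change below 0 (median -0.14), against 49.9% of all genes. Of the 14, 3 reached an unadjusted p under 0.05, all lower (21.4%, against 5.6% of all genes). The groups did not overlap in 4 genes (28.6%, against 8.77%). All 4 transcription factors (median -0.32) and all 4 stress targets (median -0.26) had a fold change below 0, as did 1 of the 4 serine and one-carbon enzymes (median 0.11).

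**Figure D2:**
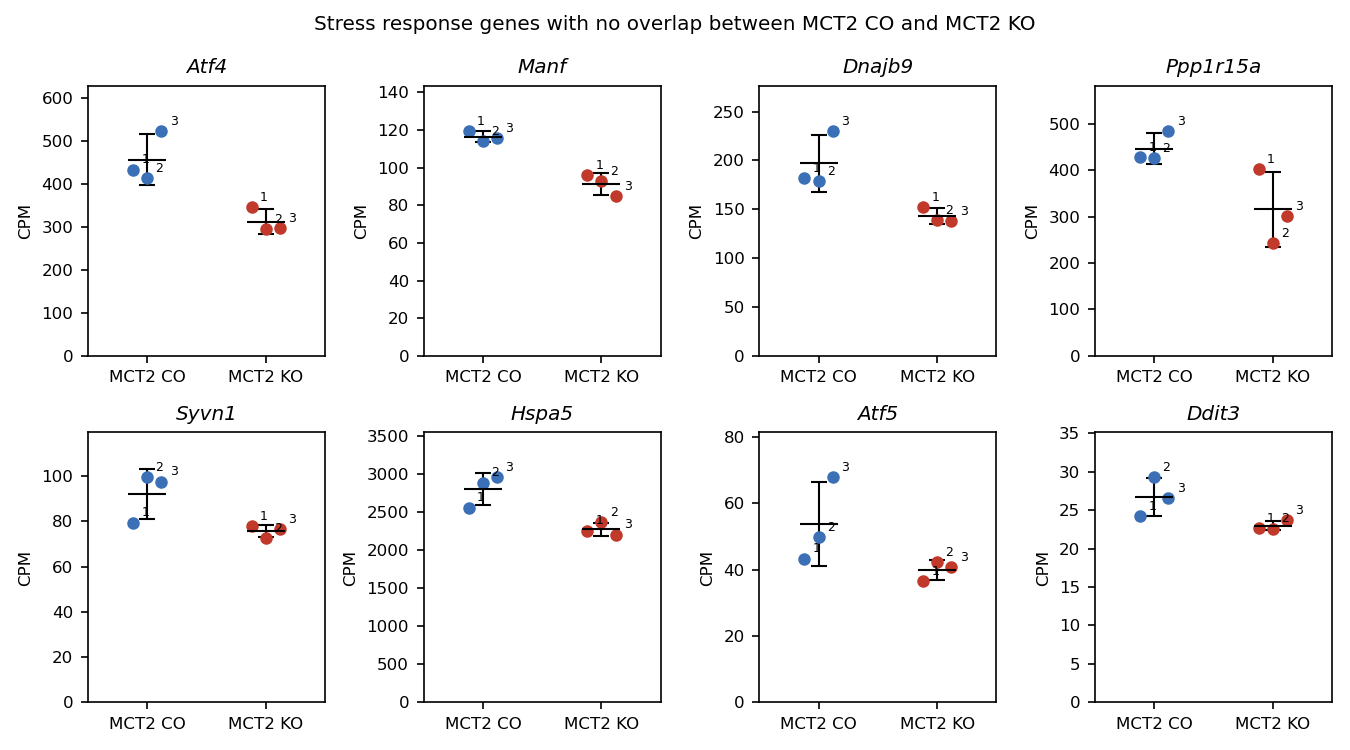
CPM in each sample for the 8 genes whose 3 MCT2 KO values all lay below the 3 MCT2 CO values, with replicate numbers beside the points and mean ± SD as black lines (n = 3 a group). The gap is widest in relation to the spread for *Atf4*, *Manf* and *Dnajb9*, and is narrow for *Syvn1*, *Atf5* and *Ddit3*.

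In the IRE1/XBP1 arm, 2 of the 7 genes (28.6%, against 8.77% of all genes) lay lower in MCT2 KO without overlap. Neither the sensor nor the factor was among them. *Dnajb9*, which encodes the ER co-chaperone ERdj4 and is a close target of spliced XBP1, had 182, 179 and 230 CPM in MCT2 CO and 152, 139 and 138 CPM in MCT2 KO. MCT2 CO 3 was highest, and the log2 fold change was -0.46 (SE 0.11, unadjusted p = 0.0039, adjusted p = 0.380, edgeR). *Syvn1*, the ubiquitin ligase HRD1 at the center of ER-associated degradation, had 79.4, 99.3 and 97.5 CPM in MCT2 CO and 77.8, 72.6 and 76.6 CPM in MCT2 KO. MCT2 CO 1 lay close to the MCT2 KO samples, and the log2 fold change was -0.28 (SE 0.10, unadjusted p = 0.0235, adjusted p = 0.485, edgeR).

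*Ern1* had 97.7 to 113 CPM in MCT2 CO and 94.4 to 109 CPM in MCT2 KO, a log2 fold change of -0.088 (SE 0.094). *Xbp1* had 124, 128 and 98.8 CPM in MCT2 CO and 131, 103 and 104 CPM in MCT2 KO, a log2 fold change of -0.057 (SE 0.13). Both overlapped widely between groups. The adaptor *Sel1l*, which holds HRD1 in its complex, had 129 to 158 CPM in MCT2 CO and 147 to 162 CPM in MCT2 KO, a log2 fold change of 0.073 (SE 0.098). *Edem1*, which passes misfolded glycoproteins on to degradation, had 169 to 188 CPM in MCT2 CO and 172 to 211 CPM in MCT2 KO, a log2 fold change of 0.044 (SE 0.10). *Syvn1* and its adaptor *Sel1l* had fold changes of opposite sign, and only that of *Syvn1* exceeded its standard error. Without MCT2 CO 3 the log2 fold change of *Sel1l* was -0.0088. The ratio of *Syvn1* to *Sel1l* counts overlapped between groups (0.503 to 0.757 in MCT2 CO, 0.481 to 0.509 in MCT2 KO). *Herpud1*, a short-lived ER membrane protein of the same complex, had 264, 238 and 192 CPM in MCT2 CO and 293, 127 and 183 CPM in MCT2 KO. MCT2 KO held both the highest and the lowest sample, and without MCT2 KO 2 the log2 fold change went from -0.20 to 0.043. The arm had 5 of 7 fold changes below 0 (71.4%, against 49.9% of all genes), with a median of -0.088.

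Among the chaperone genes, *Hspa5* and *Manf* lay lower in MCT2 KO and most of the others lay close to no change. *Hspa5* encodes BiP, the main ER member of the HSP70 family and the protein that holds the 3 sensors inactive. It had 2554, 2883 and 2950 CPM in MCT2 CO and 2254, 2362 and 2199 CPM in MCT2 KO. The groups did not overlap, and the log2 fold change was -0.30 (SE 0.11, unadjusted p = 0.027, adjusted p = 0.491, edgeR). *Manf*, a secreted ER protein that binds BiP, had 119, 114 and 116 CPM in MCT2 CO and 95.9, 92.8 and 85.0 CPM in MCT2 KO. Its MCT2 CO samples lay within a few CPM of each other, above every MCT2 KO sample. The log2 fold change was -0.35 (SE 0.078, unadjusted p = 0.0020, adjusted p = 0.370, edgeR), and the adjusted p with DESeq2 was 0.0672. *Dcaf1* and *Rbm15b* overlap 11.2% of its exon bases.

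*Hsp90b1*, which encodes GRP94, the ER member of the HSP90 family, had 1166, 1172 and 1182 CPM in MCT2 CO and 1164, 1248 and 1223 CPM in MCT2 KO. The groups overlapped, and the log2 fold change was 0.046 (SE 0.092). *Sdf2l1*, a partner of the BiP cycle, had 38.1, 43.8 and 37.9 CPM in MCT2 CO and 41.6, 26.3 and 26.7 CPM in MCT2 KO. MCT2 KO 1 stood with the MCT2 CO samples while the other two lay below all of them, and the log2 fold change was -0.34 (SE 0.18, unadjusted p = 0.093, edgeR). *Hyou1*, the nucleotide exchange factor of BiP, had 200 to 254 CPM in MCT2 CO and 208 to 234 CPM in MCT2 KO, a log2 fold change of -0.051 (SE 0.11). The co-chaperones *Dnajb11* and *Dnajc3* had log2 fold changes of -0.033 (SE 0.092) and -0.026 (SE 0.085), and *Creld2*, another ER stress-induced protein, had one of -0.047 (SE 0.097). *Atf6* itself had 135 to 175 CPM in MCT2 CO and 132 to 198 CPM in MCT2 KO, a log2 fold change of 0.10 (SE 0.16).

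The lectin chaperones and disulfide isomerases overlapped between groups in all 5 genes. *Calr*, which encodes calreticulin, had 977 to 1091 CPM in MCT2 CO and 985 to 1042 CPM in MCT2 KO, a log2 fold change of -0.012 (SE 0.095). *Canx*, which encodes its membrane-bound counterpart calnexin, had 506 to 626 CPM in MCT2 CO and 610 to 652 CPM in MCT2 KO, a log2 fold change of 0.11 (SE 0.11). *Pdia3*, the isomerase that works with both, had 860 to 873 CPM in MCT2 CO and 821 to 875 CPM in MCT2 KO, a log2 fold change of -0.023 (SE 0.088). The isomerases *Pdia4* and *Pdia6* had log2 fold changes of 0.047 (SE 0.10) and 0.087 (SE 0.096). Of the 14 genes in this group, 9 had a fold change below 0 (median -0.025), against 49.9% of all genes. An unadjusted p under 0.05 was reached by 2 of them (14.3%, against 5.6% of all genes).

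**Figure D3:**
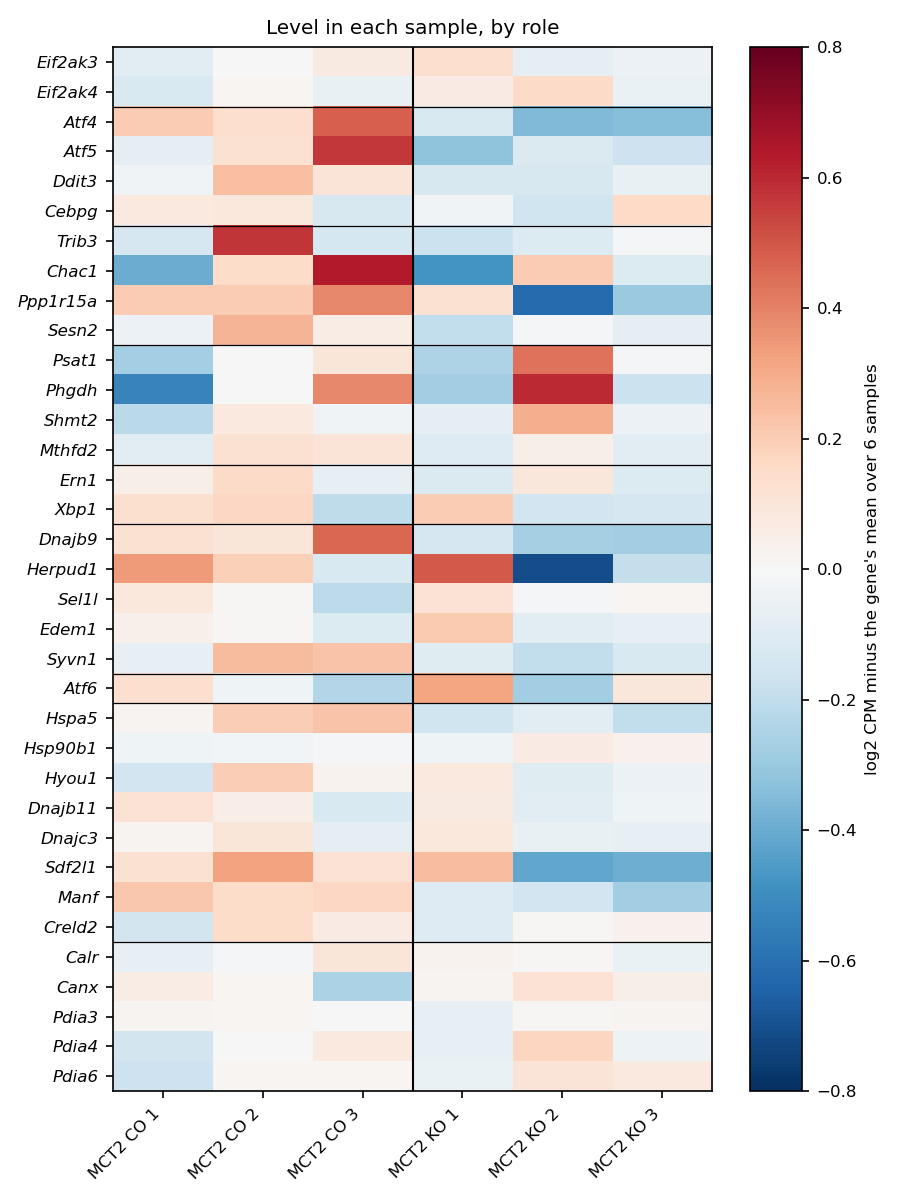
Log2 CPM of the 35 genes in each sample, minus the gene's mean over the 6 samples, with horizontal lines between roles and a vertical line between MCT2 CO and MCT2 KO. *Atf4*, *Dnajb9* and *Hspa5* change color at the vertical line, while *Psat1* and *Phgdh* are highest in MCT2 KO 2 and *Herpud1* is lowest there.

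Levels between genes were set side by side as CPM per kilobase of exon, averaged over MCT2 CO. Reads in introns may be part of these counts, so the order is approximate. *Hspa5* was highest at 661, followed by *Calr* (357), *Hsp90b1* (291) and *Pdia3* (276). *Atf4* followed at 194 and *Ppp1r15a* at 152, ahead of all other genes outside the chaperone group. The lowest were *Eif2ak4* (8.85), *Trib3* (4.61) and *Eif2ak3* (4.60), so the mRNAs of the kinases PERK and GCN2 were among the least abundant of the 35. In MCT2 KO the level of *Hspa5* on this scale was 537 and that of *Atf4* was 133.

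Ratios of the counts of 2 genes in the same sample do not depend on library scaling. The pairs were chosen after the values were seen, so they are a description with no test. *Hspa5* to *Hsp90b1* was 2.19, 2.46 and 2.5 in MCT2 CO and 1.94, 1.89 and 1.80 in MCT2 KO. *Hspa5* to *Pdia6* was 6.27, 6.26 and 6.38 in MCT2 CO and 5.12, 4.82 and 4.56 in MCT2 KO. The mRNA of BiP was lower against that of 2 other ER chaperone genes in each MCT2 KO sample than in any MCT2 CO sample. *Hspa5* to *Calr* was 2.61 to 2.85 against 2.16 to 2.30. *Dnajb9* to *Sel1l* was 1.15 to 1.79 against 0.918 to 0.944. *Atf4* to *Psat1* was 2.96 to 3.74 against 1.57 to 2.94, with the nearest samples almost level, and *Ppp1r15a* to *Ppp1r15b* overlapped between groups.

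**Figure D4:**
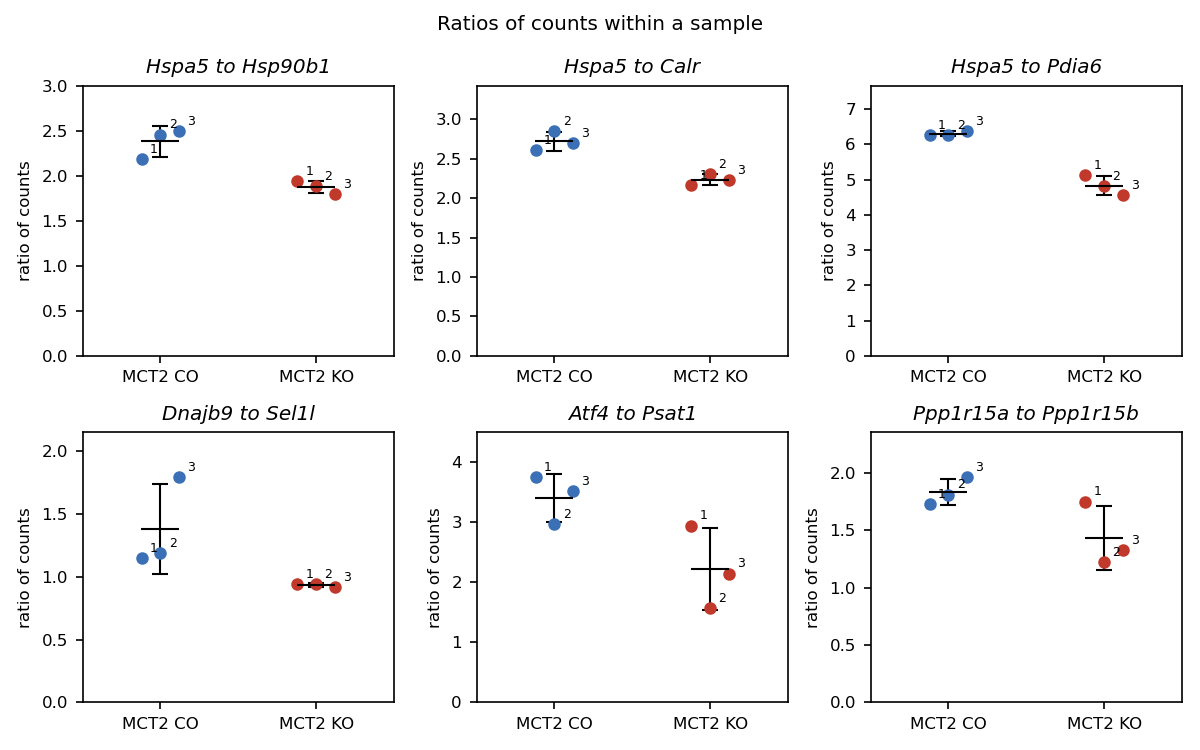
Ratio of the counts of 2 genes within each sample, for 6 of the 10 pairs examined, with replicate numbers beside the points and mean ± SD as black lines (n = 3 a group). *Hspa5* to *Pdia6* shows the clearest gap, with 6.26 to 6.38 in MCT2 CO and 4.56 to 5.12 in MCT2 KO, and *Ppp1r15a* to *Ppp1r15b* overlaps.

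Other measures differed between the groups too, some of them with an overlap. A list of 14 genes known to respond to tissue dissociation was summed. It came to 12900 to 15590 CPM in MCT2 CO and 10460 to 12940 CPM in MCT2 KO. The sums overlapped narrowly (exact two-sided permutation p = 0.2). Of the 14 genes, 13 were below 0, against 49.9% of all genes, and 6 lay lower without overlap, against 8.77%. The list held 4 cytosolic heat shock genes (*Hspa1a*, *Hspa1b*, *Hsph1* and *Dnajb1*), which all lay lower without overlap. *Hspa1b* went from 17.6 to 23.2 CPM in MCT2 CO to 5.07 to 10.3 CPM in MCT2 KO. Fibroblast markers summed to 2045 to 3355 CPM in MCT2 CO and 1708 to 1819 CPM in MCT2 KO (exact two-sided permutation p = 0.1, the smallest for 3 against 3), with 7 of 7 below 0. MCT2 CO 3, highest for *Atf4*, *Atf5* and *Dnajb9*, was also highest for the fibroblast sum. The summed macrophage markers were 6181 to 8032 CPM in MCT2 CO and 7059 to 11310 CPM in MCT2 KO, overlapping. Some B cell, plasma cell, NK cell and neutrophil genes of low level differed as well. The 8 T cell markers all overlapped between groups, as did their sum (44.2 to 66.6 against 15.1 to 88.6 CPM). Plasma cells have a very active secretory pathway, and 4 of their 6 markers tested were below 0. *Igkc*, an antibody light chain gene, had 2.40, 4.81 and 5.91 CPM in MCT2 CO and 2.01, 0.430 and 0.803 CPM in MCT2 KO, without overlap (log2 fold change -2.04, SE 0.55, unadjusted p = 0.0057, adjusted p = 0.399, edgeR). *Jchain*, which joins secreted antibody chains, had 0.500 to 1.92 CPM in MCT2 CO and 0.154 to 0.671 CPM in MCT2 KO, with an overlap (log2 fold change -1.76, SE 0.66). *Mzb1* was at 0 in every sample. The summed list overlapped (207 to 236 against 177 to 254 CPM), and *Sdc1*, *Ighm* and *Prdm1*, which other cells also express, made up most of it.

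Of the 6 B cell markers tested, *Cd79a* (log2 fold change -2.02, SE 0.45), *Blk* (-1.87, SE 0.51) and *Ms4a1* (-1.36, SE 0.37) lay lower without overlap, each at 3.42 CPM or less, while the summed list overlapped (21.8 to 24.9 against 8.35 to 24.8 CPM). Of 7 NK cell markers, 4 lay lower without overlap, while *Prf1* was higher with an overlap (log2 fold change 1.12, SE 0.34). The summed NK cell list overlapped (26.2 to 40.8 against 28.0 to 47.9 CPM). Over all genes tested, 8.77% lay lower without overlap. Against 7.07% of all genes, 6 of the 8 neutrophil markers tested lay higher in MCT2 KO without overlap, all at an unadjusted p under 0.05. They were *Ngp* (log2 fold change 4.82, SE 1.02), *Ltf* (2.83, SE 0.86), *Retnlg* (2.35, SE 0.43), *S100a9* (1.87, SE 0.39), *S100a8* (1.53, SE 0.38) and *Mmp8* (0.86, SE 0.20), at 0.133 to 4.18 CPM in MCT2 CO and 1.08 to 20.9 CPM in MCT2 KO. The summed neutrophil list, mostly *Csf3r*, overlapped (83.3 to 103 against 69.6 to 186 CPM). The part of dissociation or of any of these cell types in the lower stress genes was not tested.

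Leaving out MCT2 CO 3 or MCT2 KO 3 brought the 7 genes lower at an unadjusted p under 0.05 down to 3 (8.57%). The share of all genes fell too, from 5.6% to 3.33% without MCT2 CO 3 and 3.11% without MCT2 KO 3. The 3 genes were *Atf4*, *Dnajb9* and *Manf*. These 3 stayed under 0.05 whichever sample was left out (highest p 0.0114, 0.0194 and 0.0163). With MCT2 CO 3 and MCT2 KO 2, the samples that stood apart, left out together, 6 genes were lower at that p (17.1%, against 4.19% of all genes). Of the 35, 11 lay lower without overlap (31.4%), but so did 20.5% of all genes, since 2 against 2 samples separate more often.

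A wider list of 136 other genes of these pathways was read from the same test, of which 134 were tested. None was called. At an unadjusted p under 0.05, 3 were lower and 8 higher (2.24% and 5.97%, against 5.6% and 3.77% of all genes). Without overlap, 8 lay below and 9 above (5.97% and 6.72%, against 8.77% and 7.07% of all genes). The median log2 fold change was 0.025. Of the 134, 61 (45.5%, against 49.9% of all genes) had a fold change below 0. Values are given for the 2 genes of lowest p in each role.

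Among amino acid genes that ATF4 drives, *Slc7a11*, the cystine transporter, had 42.6 to 64.9 CPM in MCT2 CO and 70.1 to 86.3 CPM in MCT2 KO (log2 fold change 0.54, SE 0.16, unadjusted p = 0.0093, adjusted p = 0.429, edgeR). *Slc7a3*, a cationic amino acid transporter of low level here, had 1.58 to 2.41 CPM in MCT2 CO and 1.13 to 1.29 CPM in MCT2 KO. Of the 17 genes of this role, 2 lay lower without overlap (11.8%, against 8.77% of all genes). Higher without overlap was 1 (5.88%, against 7.07%). Among further stress targets, *Bbc3*, which encodes the cell death protein PUMA, had 36.4 to 49.0 CPM in MCT2 CO and 14.98 to 31.2 CPM in MCT2 KO (log2 fold change -0.81, SE 0.25, unadjusted p = 0.011, edgeR). *Cebpb*, a factor of myeloid cells, had 11.7 to 18.4 CPM in MCT2 CO and 9.09 to 12.4 CPM in MCT2 KO, with a small overlap.

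In ER folding, *Ero1l*, the oxidase that recharges disulfide isomerases, had 57.0 to 98.2 CPM in MCT2 CO and 111 to 147 CPM in MCT2 KO (log2 fold change 0.66, SE 0.21, unadjusted p = 0.013, edgeR). *Sil1*, an exchange factor for BiP, had 23.6 to 26.2 CPM in MCT2 CO and 29.2 to 31.3 CPM in MCT2 KO (log2 fold change 0.28, SE 0.086, unadjusted p = 0.011, edgeR). Both lay above MCT2 CO in every MCT2 KO sample. Of the 23 genes of this role, 2 lay higher and 2 lower without overlap (8.7% each). Over all genes the shares were 7.07% and 8.77%. *Crebrf*, a regulator of the CREB3 family, was also higher without overlap (23.5 to 25.2 against 26.8 to 32.6 CPM), and *Nfya*, a subunit of the factor that reads CCAAT, overlapped (log2 fold change -0.095). *Eif2b5*, a subunit of the exchange factor that phosphorylated eIF2 inhibits, was at 44.4 to 47.9 CPM in MCT2 CO and 53.1 to 53.5 CPM in MCT2 KO.

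Of the 13 tRNA synthetase and tRNA export genes, 2 had a fold change below 0 (15.4%, against 49.9% of all genes). *Lars* (log2 fold change 0.21, SE 0.077) and *Sars* (0.16, SE 0.085) had the lowest p. In ER degradation, *Derl3* was at 1.47 CPM or less in every sample and *Os9* overlapped between groups (log2 fold change 0.23, SE 0.11). In translocation, *Sec61b* lay lower without overlap (log2 fold change -0.24, SE 0.12) and *Sec11c* overlapped (-0.11, SE 0.080). Of the 7 genes for substrates of IRE1 decay and for cell death, 5 were below 0 (71.4%, against 49.9% of all genes, median -0.093). The 2 of lowest p, *Hgsnat* (0.35, SE 0.15) and *Scara3* (0.19, SE 0.12), had log2 fold changes above 0. In the mitochondrial unfolded protein response, 7 of 9 genes were below 0 (77.8%, against 49.9% of all genes). The gene of lowest p there, the protease *Lonp1*, was above 0 (0.25, SE 0.097), and *Clpp* was at -0.14 (SE 0.14).

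**Figure D5:**
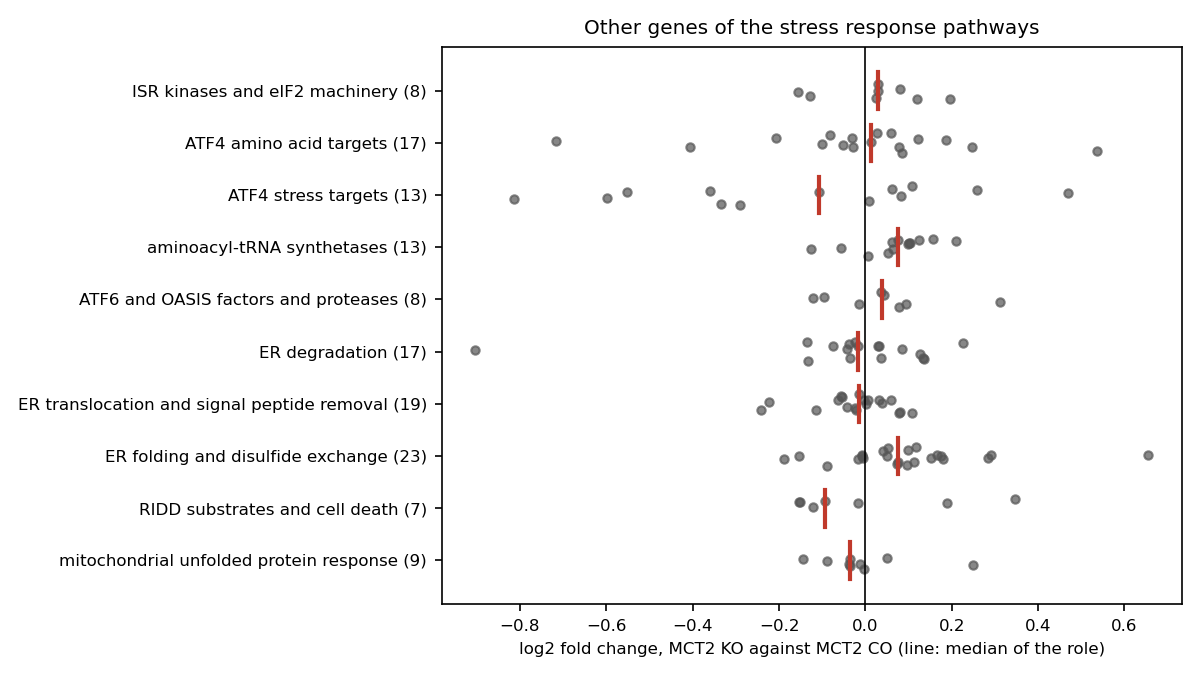
Log2 fold change of each of the 134 other pathway genes tested, MCT2 KO against MCT2 CO, by role with the number of genes in brackets and the median of each role as a red line. The points lie on both sides of 0 in every role, with *Slc7a11* and *Ero1l* farthest right and *Derl3* and *Bbc3* farthest left.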

How the data were processed

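Poly-A RNA of the CD11b+ cells had been sequenced with a stranded kit on an Illumina HiSeq. The submitters' processing notes name FastQC 0.12.0, MultiQC 1.28, STAR 2.7.11b, featureCounts 2.1.1, DESeq2 1.18.1 and GRCm38. The authors deposited raw read counts per gene, not normalized and not pooled. The deposited length of each of the 25701 genes is its whole span, so reads in introns may have been counted. Positions are those of GENCODE M21, since 98.1% of spans had the same length in it but 2.4% the same position. Samples were grouped by title, and 0 sample columns were left unused. Separate mice per sample are not stated in the labels, so p-values measure the spread between these samples.

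Counts were analysed with R 4.3.3, edgeR 4.0.16 (filterByExpr with minimum count 10 and minimum total 15, TMM, quasi-likelihood test, Benjamini–Hochberg adjustment over 13485 genes), limma 3.58.1 and DESeq2 1.42.0, and sequences with Python 3.11.15. CPM values were scaled by the TMM library size, and standard errors were taken from the fold change and its F statistic. The test was run on simulated counts with the same dispersion for every gene and fold changes larger than those of the 35 genes. It therefore does not show how the test performs on changes of their size. Depth leaves little counting error except at a few CPM; 3 counts equal 0.0946 to 0.121 CPM. Named were all 35 genes, the 2 of smallest p in each other pathway role, *Slc16a7*, markers set beside them and overlapping genes; *Ppp1r15b* falls under this rule, and the heat shock genes come from the marker list. Members, lists and ratio pairs were chosen with earlier results of these data known. Alternatives were DESeq2, limma-voom, other normalizations and filters, a block on replicate number, and leaving out samples. Same-numbered samples did not deviate together (r = 0.216, -0.247 and -0.161), so the numbers were not taken as pairs.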

Additional observations from a re-analysis of the deposited data

How the results depend on the processing

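None of the 35 genes and none of the 134 other pathway genes was called under any alternative run. Over all genes, calls rose from 0 to 79 with DESeq2 on the same genes, 83 with DESeq2 on all genes with a count, 2 without the filter and 10 with MCT2 CO 3 and MCT2 KO 2 left out together, an alternative added after seeing the data; they were 0 to 2 with single samples left out. The cause was not tested. *Slc16a7* was called with DESeq2 (log2 fold change -1.045 and -1.041) and ranged from -1.30 to -0.85 with single samples left out. The median of the chaperone group was -0.013 with DESeq2 on all genes. *Calr* turned to 0.00021 there and to 0.027 with both samples left out, where *Canx* turned to -0.0030. With single samples left out, the genes lower at an unadjusted p under 0.05 numbered 3 to 9 (8.57% to 25.7%, against 3.11% to 6.24% of all genes). Those lower without overlap numbered 8 to 11 (22.9% to 31.4%, against 11.6% to 16.3% of all genes, as fewer samples separate more often). Those higher without overlap numbered 0 to 3 (against 10.5% to 15.4%). The medians were -0.21 to -0.019 (PERK/ATF4), -0.17 to 0.0054 (IRE1/XBP1) and -0.028 to 0.017 (chaperones). Of 525 fold changes of the 35 genes over 15 alternatives, 491 kept direction and side and 34, in 20 genes, changed sign, while the 8 genes lower without overlap kept theirs. With single samples left out, these 20 except *Canx* ranged across 0: *Eif2ak3* (-0.047 to 0.055), *Cebpg* (-0.099 to 0.055), *Trib3* (-0.36 to 0.041), *Chac1* (-0.51 to 0.0056), *Psat1* (-0.070 to 0.29), *Phgdh* (-0.22 to 0.35), *Shmt2* (-0.0093 to 0.19), *Xbp1* (-0.17 to 0.011), *Herpud1* (-0.57 to 0.043), *Sel1l* (-0.0088 to 0.14), *Edem1* (-0.049 to 0.098), *Atf6* (-0.036 to 0.25), *Hyou1* (-0.13 to 0.040), *Dnajb11* (-0.099 to 0.019), *Dnajc3* (-0.072 to 0.018), *Creld2* (-0.13 to 0.017), *Calr* (-0.046 to 0.034), *Pdia3* (-0.034 to 0.013), *Pdia4* (-0.029 to 0.10). The replicate block left 7 genes lower at an unadjusted p under 0.05 (20%, against 4.4% of all genes) and changed no call.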
